A study of Mus musculus with 2 samples.

Results

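The S100 genes of liver immune cells are described here, as 7 members (S100a4, S100a6, S100a8, S100a9, S100a10, S100a11 and S100a13) of the 13528 genes in the filtered table of single-cell counts. They were chosen by gene symbol, with earlier results of these data known. Their levels were read per annotated cell type, per cluster and per genotype. A further 3 family genes of that table (S100a1, S100a3 and S100b) are given only as values. Transcripts were counted as unique molecular identifiers (UMIs) in CD45+ cells sorted from mouse liver on the BD Rhapsody platform, together with 49 oligonucleotide-tagged antibodies. TG stands for dnTGFβRII mice, in which the CD4 promoter of the mouse drives a human TGF-β receptor II with dominant negative action in T cells, and which model primary biliary cholangitis (PBC). WT mice were C57BL/6 controls without the transgene. The TG cells were captured in a library that also held IFN-γ ARE-Del-/- mice, and the WT cells in a library that also held P40-/-IL-2Ra-/- mice. The labels give 10 weeks as the age, which is older than in the methods of the study, and the number of mice in a pool is not given in the sources used here.

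S100 proteins are small calcium-binding proteins that mostly work as dimers and change shape when calcium binds. S100a8 and S100a9 pair to form calprotectin, an abundant protein of the neutrophil cytoplasm that binds metal ions and, once released, acts as an alarm signal through receptors such as Tlr4 and Ager. The other members act mainly inside the cell, where they bind annexins, myosin and further partners of the cytoskeleton and membrane.

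With 1 library per genotype there was no replicate, so TG and WT were compared without a test, and the effect of genotype cannot be told apart from that of the capture library. The TG library gave 4647 cells with 18498477 UMIs and a median of 3298 per cell, and the WT library gave 7282 cells with 22216379 UMIs and a median of 2653.5. Among the cells with a genotype name, 36 cell indices occurred in both libraries. Levels are UMIs per 1000000 (CPM) of the summed profile of a cell type, not scaled by transcript length, so different genes are compared only as a count ratio within a library. All intervals are 95% intervals of counting error only, and PCR and differences between cells or mice are not in them.

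All 7 members lie on chromosome 3 (GRCm38) within 3.05 Mb, in the order S100a13, S100a4, S100a6, S100a8, S100a9, S100a11 and S100a10. S100a8 (chr3:90668978-90670035, plus strand) and S100a9 (chr3:90692632-90695721, minus strand) are neighbours 22.6 kb apart that are read in opposite directions. S100a4 (chr3:90603771-90606045) and S100a6 (chr3:90612882-90624181) are 6.84 kb apart, and S100a11 (chr3:93520488-93526287) and S100a10 (chr3:93555080-93564643) are 28.8 kb apart. S100a13 lies at chr3:90514435-90524581. The promoter windows of the S100 genes with the highest neutrophil levels that held a searched motif (S100a8, S100a9 and S100a11) are printed beside that of S100a4, which was nearly absent from neutrophils. Each is the 250 bases before the RefSeq start (GRCm38.p6), 5′ to 3′ on the strand of the gene, with matches on either strand in capitals. The windows are chr3:90668821-90669070 for S100a8, chr3:90695722-90695971 for S100a9, chr3:93520246-93520495 for S100a11 and chr3:90603520-90603769 for S100a4. The RefSeq starts of S100a8 and S100a11 used here lie inside the GENCODE genes. The motifs searched were the core TTGCNNAA of the C/EBP factors, the core GAGGAA of PU.1 (TTCCTC on the other strand) and the TATA box TATAAA.
S100a8: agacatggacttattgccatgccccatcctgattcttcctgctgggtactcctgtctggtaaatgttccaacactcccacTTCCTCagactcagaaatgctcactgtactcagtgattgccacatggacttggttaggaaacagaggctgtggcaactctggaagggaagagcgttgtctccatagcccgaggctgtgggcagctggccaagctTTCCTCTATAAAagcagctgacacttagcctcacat
S100a9: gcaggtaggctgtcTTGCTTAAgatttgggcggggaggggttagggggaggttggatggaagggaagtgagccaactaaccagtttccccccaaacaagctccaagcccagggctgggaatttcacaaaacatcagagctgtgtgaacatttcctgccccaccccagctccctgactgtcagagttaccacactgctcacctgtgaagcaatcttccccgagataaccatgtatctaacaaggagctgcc
S100a11: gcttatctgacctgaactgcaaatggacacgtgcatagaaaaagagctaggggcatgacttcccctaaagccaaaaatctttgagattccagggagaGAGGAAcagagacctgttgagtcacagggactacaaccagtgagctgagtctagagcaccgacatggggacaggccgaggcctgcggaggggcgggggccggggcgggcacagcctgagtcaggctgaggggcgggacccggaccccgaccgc
S100a4: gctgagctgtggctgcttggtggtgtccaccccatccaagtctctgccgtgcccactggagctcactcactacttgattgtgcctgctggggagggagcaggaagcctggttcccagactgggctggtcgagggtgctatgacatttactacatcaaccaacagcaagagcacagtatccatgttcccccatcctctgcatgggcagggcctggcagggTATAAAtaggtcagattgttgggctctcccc
The S100a8 window held 2 PU.1 cores, which began 170 and 36 bases before the start, and a TATA box at 30 bases that directly followed the second core. S100a9 held a C/EBP core 236 bases before the start, S100a11 a PU.1 core at 153 and S100a4 a TATA box at 31. S100a6 and S100a13 held none of these letters, and S100a10 was not in the promoter table. Over all 32851 windows of this length, 23.3% held the PU.1 core, 12.4% the TATA box and 9.56% the C/EBP core, so a single match is common, and a match is not evidence of a used site.

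The deposited cell type names were compared with marker genes before they were used. The cells named monocytes were all of cluster 5, and their leading genes included Csf3r, Cxcr2 and Il1r2 of the neutrophil list. The summed level of 5 neutrophil markers there was 18850 CPM in TG and 19909.5 in WT, against 1102 and 683 for 7 monocyte markers, and the monocyte genes F13a1 and Fn1 had at most 3 UMIs. These cells are therefore called cluster 5 below. The cells named neutrophils were cluster 24, led by the granule genes Ngp, Camp, Ltf and Lcn2 and also by S100a8 itself. They numbered 54 in TG and 17 in WT, and the antibody to Ly6G, a surface marker of neutrophils, had a UMI in only 1 and 0 of them, with a median of 0 in every type checked. In cluster 24 the neutrophil markers summed to 20504.5 CPM in TG and 25523.8 in WT, and the monocyte markers to 7159 and 8893. Chil3 of the monocyte list was among its leading genes, while Ccr2, F13a1 and Fn1 of that list had at most 3 UMIs. The name macrophages joined cluster 15, with Cd209a, Ace and Csf1r in front, cluster 22, with Xcr1, and cluster 27, with C1qa, whose 23 cells were all WT. The cells named NK also differed between libraries. In cluster 3 the T cell gene Cd3e was at 1608 CPM in TG and 122 in WT, in cluster 11 it was at 1401 and 130, and in cluster 8 at 133 and 67.5. Cluster 11 held 343 of the 759 TG cells and 22 of the 615 WT cells named NK, so a value over all cells named NK compares different mixtures. Ratios of the members other than S100a8 and S100a9 are given by cluster for these cells, and their levels and counts over the whole name are kept only where types are listed together. The cells named CD8αα T were cluster 2, where 4 haemoglobin genes summed to 0.755 CPM in TG and 4860 in WT and Trdc, a γδ receptor gene, was at 95.1 and 855. In cluster 3 the same haemoglobin sum was 1.27 and 2711.64 CPM. The part of these markers in the S100 values of clusters 2, 3 and 11 was not tested. The cells named immature B were cluster 10, whose leading genes included Zbtb32, Fcrl5, Ighg3 and Bhlhe41 and none of the B cell markers. Whether these cells were immature was not checked, and the name is kept below as deposited.

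S100a8 and S100a9 were by far highest in the neutrophils of cluster 24, followed by cluster 5. In neutrophils S100a8 was at 62117 CPM in TG (interval 61278 to 62964) and 41698 CPM in WT, and S100a9 was at 67555 and 63924 CPM. The 2 genes together made up 12.97% of all neutrophil UMIs in TG (interval 12.85 to 13.08) and 10.56% in WT (interval 10.36 to 10.76). In cluster 5 S100a8 was at 21386 CPM in TG and 10788 in WT and S100a9 at 27541 and 18306, which together came to 4.89% of the UMIs in TG and 2.91% in WT. Neutrophils and cluster 5 held 94.4% of all S100a8 UMIs of the TG cells and 89.7% of those of the WT cells, and 92.9% and 90.4% of the S100a9 UMIs. The neutrophils are 1.16% of the TG cells and 0.233% of the WT cells, and cluster 5 is 4.39% and 3.54%. Since clusters were formed on all genes and S100a8 leads cluster 24, these levels describe the clusters and are not a test.

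**Figure D1:**
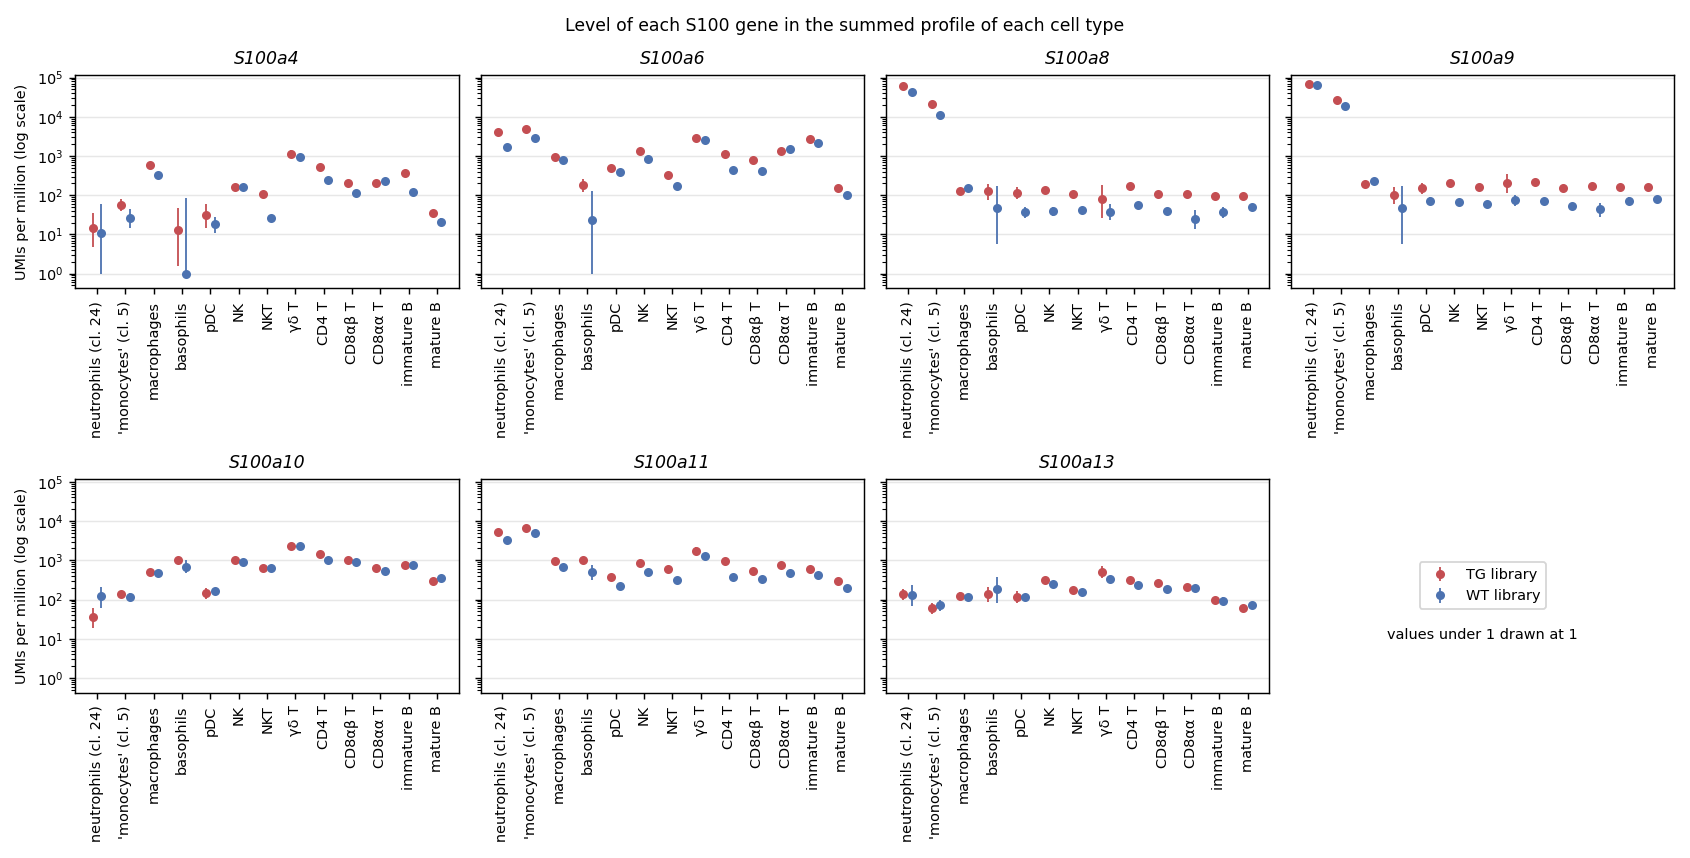
Level of each S100 gene by cell type, in UMIs per 1000000 on a log axis, with TG in red and WT in blue. Points are summed profiles of 1 library and bars are 95% counting intervals. S100a8 and S100a9 stand at 41698 to 67555 in neutrophils and at or under 234 outside neutrophils and cluster 5, while S100a10 is at 35.6 to 135 in neutrophils and cluster 5, below the other types drawn.

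The pair varied together from cell to cell. In cluster 5 the per-cell correlation of S100a8 and S100a9 was r = 0.93 over 204 TG cells and 0.88 over 258 WT cells, and in the 54 TG neutrophils it was 0.69, all given as a description of cells of 1 library that share their depth. Single TG neutrophils held 35.6 to 90.7 S100a8 UMIs per 1000 UMIs, with a median of 62.5, and WT neutrophils held 17.3 to 74.2, with a median of 48.98, so the cells of the libraries overlapped. In cluster 5 the quartiles of S100a8 were 13.9 and 29.3 UMIs per 1000 in TG cells and 5.21 and 17.0 in WT cells. Those of S100a9 in cluster 5 were 18.02 and 38.5 in TG and 9.26 and 27.04 in WT, again overlapping.

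Between genotypes, S100a8 differed more than S100a9 in both neutrophil-like populations. In neutrophils the log2 ratio of TG over WT was 0.58 for S100a8 (interval 0.53 to 0.63) and 0.08 for S100a9 (interval 0.04 to 0.12). Both depend on how the profiles are scaled, since edgeR's TMM factors moved S100a8 to 0.94 and S100a9 to 0.44. The per-cell median of S100a9 in neutrophils was lower in TG, at 69.1 UMIs per 1000 UMIs against 72.9 in the 17 WT cells. In cluster 5 the ratio was 0.99 for S100a8 (interval 0.94 to 1.03) and 0.59 for S100a9 (interval 0.55 to 0.63). The count ratio of S100a8 to S100a9 was 0.919 in TG neutrophils (interval 0.902 to 0.937) and 0.652 in WT neutrophils (interval 0.626 to 0.680), and 0.777 and 0.589 in cluster 5. This ratio does not depend on the library total. In cluster 5, 0 of the 6 members with enough UMIs passed a 2-fold difference, where 5.23% of 2927 genes did. S100a8 lay just under that fold and passed it with TMM factors (log2 1.07) and with totals that leave out S100a8 and S100a9.

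Lymphocytes held S100a8 and S100a9 UMIs at low levels. With all cells counted, their highest S100a8 level in either library was in CD4 T cells. Over 7 lymphocyte types of TG with at least 50 cells, S100a8 was at 93.5 to 175 CPM, or 0.1505% to 0.282% of the neutrophil level, and over 8 types of WT at 25.5 to 56.0 CPM, or 0.061% to 0.134%. S100a9 was at 152 to 223 CPM in TG and 43.6 to 77.9 in WT. Whether these UMIs came from RNA outside its cell of origin or from the lymphocytes themselves was not tested. The S100a8 to S100a9 ratio over all lymphocytes was 0.663 in TG (interval 0.625 to 0.704) and 0.676 in WT (interval 0.618 to 0.739), in TG below that of neutrophils and cluster 5 of the same library, and in WT above that of cluster 5 and overlapping that of neutrophils. Other neutrophil genes were also found in lymphocytes, at a median over the types of 34.7 CPM in TG and 20.9 in WT for Retnlg and 26.1 and 24.4 for Ngp, but 7.01 and 8.68 for Ltf and 10.7 and 11.2 for Lcn2. This median was higher in TG for 7 of the 12 listed neutrophil genes and lower for the other 5. Over all cells of a library, those without a genotype name included, S100a8 was at 1531 CPM in the library of the TG cells and 1787 in that of the WT cells. A few cells carried much of the signal in some types. In WT, 6 of 261 macrophages held 79.9% of the S100a8 UMIs of that type, with 31.4 CPM left without them. Among CD4 T cells 2 of 238 TG cells held 35.8%, with 112 CPM left, and 1 of 734 WT cells held 18.3%, with 45.7 CPM left. Without cells of at least 10 S100a8 UMIs, CD4 T cells were no longer the highest lymphocytes. The cells named NK then stood at 121 CPM in TG and mature B cells at 47.6 in WT.

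**Figure D2:**
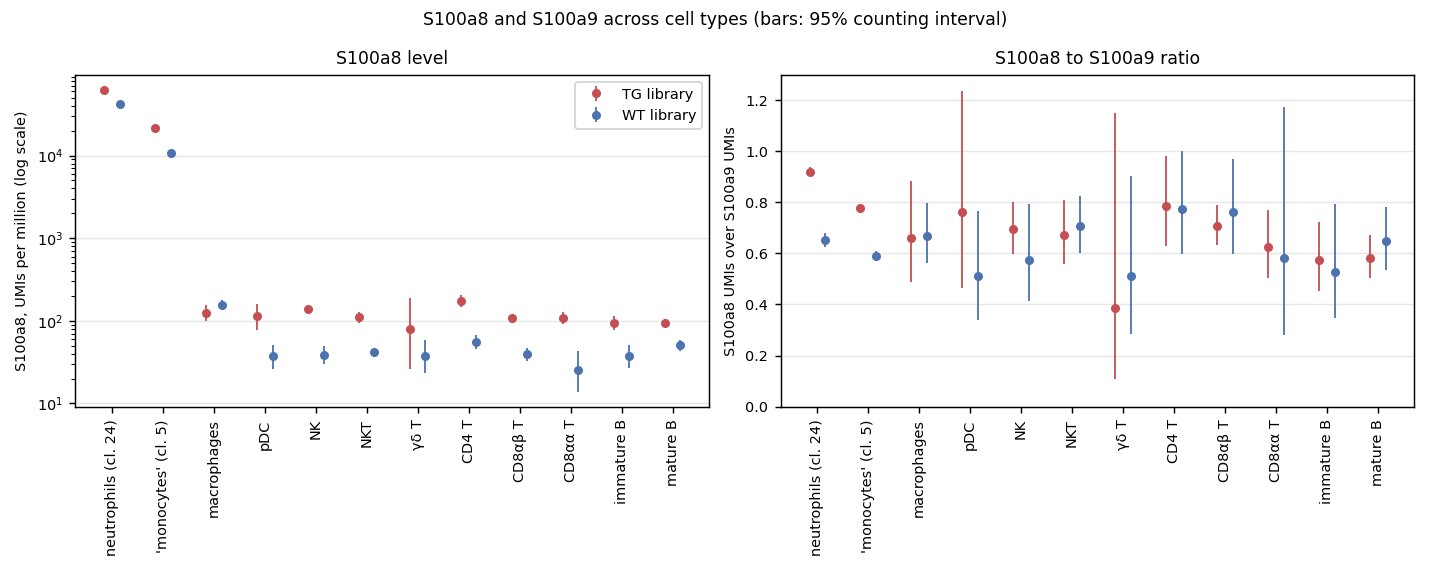
Left, S100a8 level by cell type in UMIs per 1000000 on a log axis. Right, ratio of S100a8 to S100a9 UMIs, with 95% counting intervals as bars, TG in red and WT in blue, 1 library each. The ratio is 0.919 and 0.652 in TG and WT neutrophils, and the intervals of TG and WT overlap in every lymphocyte type.

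S100a11, a partner of Anxa1 in membrane traffic, shared the myeloid peak. It was at 6760 CPM in TG and 5004 in WT in cluster 5 and at 5127 and 3254 in neutrophils, and the lowest single cell of these populations held 0.443 S100a11 UMIs per 1000. The log2 ratio of TG over WT was 0.43 in cluster 5 (interval 0.36 to 0.51) and 0.66 in neutrophils. Next came γδ T cells, at 1768 and 1307 CPM, and the lowest level was in mature B cells, at 299.8 CPM in TG and 193 in WT. In WT the order of the types with at least 50 cells from NK to NKT cells (498 to 306 CPM) had overlapping intervals between each pair of neighbours. S100a6, or calcyclin, which binds Cacybp, was at 4957 CPM in TG and 2905 in WT in cluster 5 and at 4034 and 1742 in neutrophils (log2 1.21, interval 0.97 to 1.46, with 17 WT cells). S100a6 was also high in 2 lymphocyte populations, at 2941 and 2528 CPM in γδ T cells and 2644 and 2208 in immature B cells, in WT above its neutrophil level. Mature B cells had only 152 and 103 CPM of S100a6, so the cells named immature B and mature B differed in both libraries with intervals far apart.

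S100a4, which binds non-muscle myosin and is known for a role in cell motility, had another distribution. Among the cell types S100a4 was highest in γδ T cells, at 1141 CPM in TG, from 17 cells, and 938 in WT. Next came the cells named macrophages, at 578 and 329 CPM, and CD4 T cells, at 513 and 241 CPM. Their intervals overlapped in TG. Basophils held 2 and 0 S100a4 UMIs, the latter with a floor of 69.3 CPM for 3 UMIs. Neutrophils held 5 and 1 S100a4 UMIs in all, or 14.9 and 10.9 CPM, and cluster 5 held 56.8 and 26.8 CPM. S100a10, the partner of Anxa2, was likewise highest among the types in γδ T cells, at 2266 and 2327 CPM, and then in CD4 T cells, at 1418 and 1046 CPM. In neutrophils S100a10 was at 35.6 CPM in TG and 120 in WT, from 12 and 11 UMIs. S100a13, which takes part in the release of proteins that lack a signal peptide, was the most even member. It ranged over the cell types from 60.2 CPM in cluster 5 to 514 in γδ T cells in TG, and from 70.7 in mature B cells to 343 in γδ T cells in WT. S100a1, S100a3 and S100b were low. S100a1 reached at most 76.2 CPM, from 7 UMIs in WT neutrophils, and S100b at most 23.1 CPM, from 1 UMI in WT basophils. S100a3 reached at most 1.70 CPM in TG, from 3 UMIs in NKT cells, and is listed at 0 in WT, where the library table holds 7 UMIs in the same cells.

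Over the 9 cell types with at least 50 cells in each library, 62 pairs of member and type had at least 50 UMIs, and 18 were at least 2-fold higher in TG while 0 were 2-fold lower. The log2 ratio was above 0 in 53 of the 62 pairs, and 18 of the 62 were pairs of S100a8 or S100a9. The median log2 ratio of all genes lay between -0.06 and 0.07 in these types, which share the same 2 libraries. Of the 18 called pairs, 13 were S100a8 or S100a9 in lymphocytes, at the low levels described above whose source was not tested, and 5 of the 44 pairs of the other members passed. In CD4 T cells 5 of 7 members were at least 2-fold higher, where 5.14% of 6457 genes passed in either direction. In NKT cells 3 of 7 passed (3.38% of genes), in immature B cells 3 of 7 (2.81%), in the cells named NK 2 of 7 (5.09%), in CD8αβ T cells 2 of 7 (4.44%), in the cells named CD8αα T 2 of 7 (3.8%) and in mature B cells 1 of 7 (2.66%). In the cells named macrophages 0 of 7 passed (5.78%). In the cells named NK, CD8αβ T, CD8αα T and mature B the members that passed were S100a8 or S100a9 only. S100a1, which is not counted among the members, was 2-fold lower over the cells named macrophages, at 14.7 and 42.9 CPM (log2 -1.54, interval -2.74 to -0.52). That name also held a cluster with WT cells only. Within cluster 15 the S100a1 ratio was -0.64 (interval -2.50 to 0.97, from 5 and 12 UMIs). Within cluster 22, with 20 TG cells, it was -0.66 (interval -2.66 to 0.91, from 4 and 21 UMIs). Both were under 2-fold and rest on fewer than 50 UMIs. The part of the cluster mixture was not tested. S100a1 was 2-fold higher in CD8αβ T cells (1.24, interval 0.22 to 2.41) and at -0.80 over the cells named NK.

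**Figure D3:**
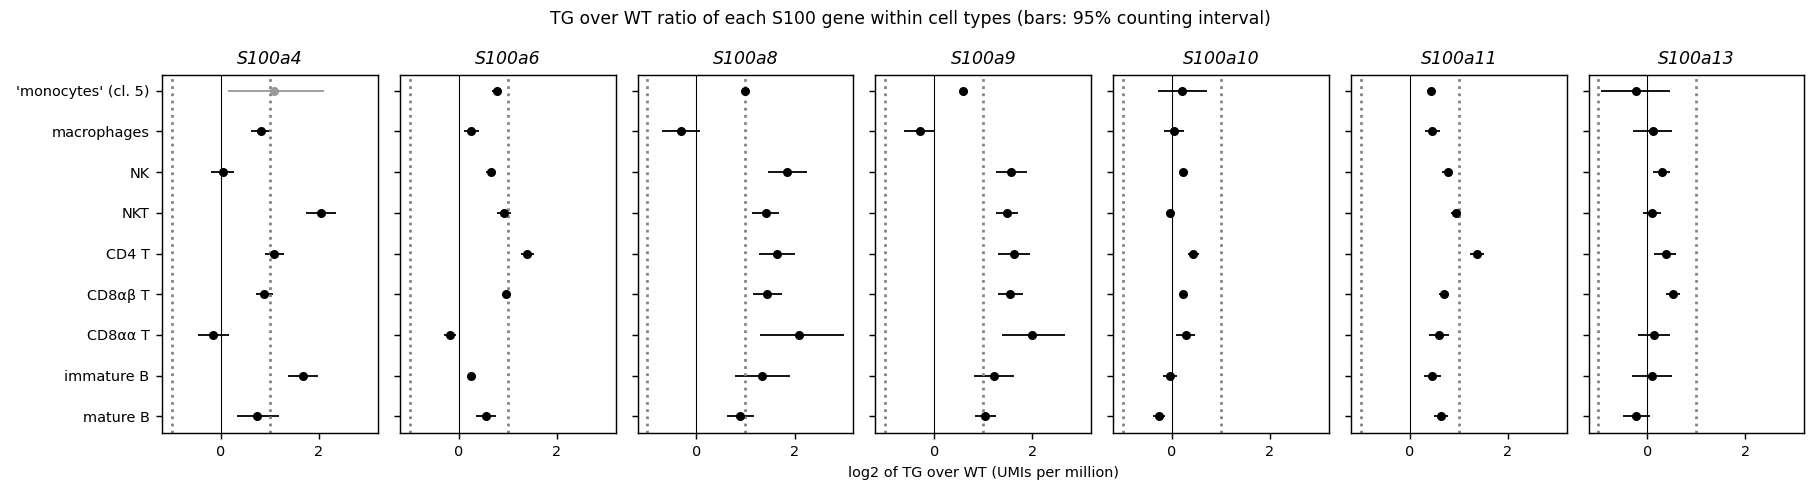
Log2 ratio of TG over WT (x axis) for each S100 gene in each cell type (y axis), with 95% counting intervals as bars and dotted lines at a 2-fold difference. Grey marks a pair under 50 UMIs. S100a4 lies past 2-fold at 2.04 in NKT, 1.67 in immature B and 1.09 in CD4 T cells, and S100a10 and S100a13 stay within 2-fold in every type shown.

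In CD4 T cells S100a4, S100a6 and S100a11 were all higher in TG. S100a4 was at 513 CPM in TG and 241 in WT (log2 1.09, interval 0.90 to 1.28), S100a6 at 1149 and 437 (1.39, interval 1.26 to 1.53) and S100a11 at 964 and 372 (1.37, interval 1.23 to 1.52). The S100a4 ratio fell below 2-fold, to 0.89 at the lowest, with TMM factors, without ribosomal protein and mitochondrial genes, after thinning and with equal weight per cell. S100a10 was at 1418 and 1046 (0.44) and S100a13 at 307 and 237 (0.37). Different clusters held most of the CD4 T cells in each library. Cluster 6 held 58 of 238 TG cells and 397 of 734 WT cells, while cluster 9 held 132 and 272 and cluster 21 held 48 and 65. S100a4 was nearly absent from cluster 6, with 2 and 8 UMIs. Within cluster 9 the log2 ratio was 0.59 for S100a4 (620 and 413 CPM), 0.99 for S100a6 (1195 and 600) and 0.85 for S100a11 (1081 and 601). The members past 2-fold in cluster 9 were S100a8 and S100a9, 2 of 7, where 3.88% of genes passed. Within cluster 6 S100a6 was at 172 and 46.1 CPM (log2 interval 1.19 to 2.60, from 30 and 46 UMIs) and S100a11 at 241 and 98.1 (interval 0.74 to 1.83), and with S100a8 and S100a9 4 of 6 passed against 6.77% of genes. In this cluster Cd8a was at 97.5 and 27.03 CPM, Cd8b1 at 103 and 34.0 CPM and the upper quartile of the CD44 value at 3.42 and 2.13, and their part was not tested. In cluster 21 S100a4 was at 698 and 753 CPM (-0.11), S100a6 at 1913 and 1755 (0.12) and S100a10 at 2036 and 3231 (-0.67). With the 3 clusters weighted equally the ratios over CD4 T cells were 0.18 for S100a4, 0.45 for S100a6 and 0.75 for S100a11, all under 2-fold, and that of S100a10 turned to -0.34.

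In CD8αβ T cells S100a4 was at 209 CPM in TG and 113 in WT (log2 0.89) and S100a6 at 812 and 413 (0.97), both just under 2-fold and both above it after thinning or with equal weight per cell, and their ratios differed between clusters. The largest was in cluster 13, where S100a4 was at 160 and 18.6 CPM (log2 3.10, interval 2.14 to 4.26, from 155 and 9 UMIs) and S100a6 at 871 and 112 (2.96, interval 2.57 to 3.39). In that cluster 4 of 7 members passed 2-fold, against 3.96% of genes. The median CD44 value in cluster 13 was 3.35 in TG and 3.10 in WT and Cd8b1 was at 1066 and 703 CPM, and their part was not tested. In cluster 12 S100a6 went the other way, with 693 CPM in TG and 1298 in WT (-0.91, interval -1.12 to -0.69), S100a4 was at 257 and 232 (0.15), and 0 of 7 members passed, against 7.19% of genes. In cluster 7 S100a6 was at 1095 and 712 (0.62) and S100a4 at 275 and 256 (0.10), and the 2 of 7 past 2-fold were S100a8 and S100a9, against 4.49% of genes. In cluster 4, which held 145 of 1020 TG and 363 of 819 WT CD8αβ T cells, S100a6 was low in both, at 123 and 37.2 CPM (1.73, interval 1.17 to 2.31), and 3 of 6 members passed, against 4.44% of genes. The median CD44 antibody value, a natural-log value, was 3.14 in the TG cells of cluster 4 and 1.31 in the WT cells, and 4 haemoglobin genes summed to 0 CPM there in TG and 463 in WT. Their part in the S100 values was not tested.

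**Figure D4:**
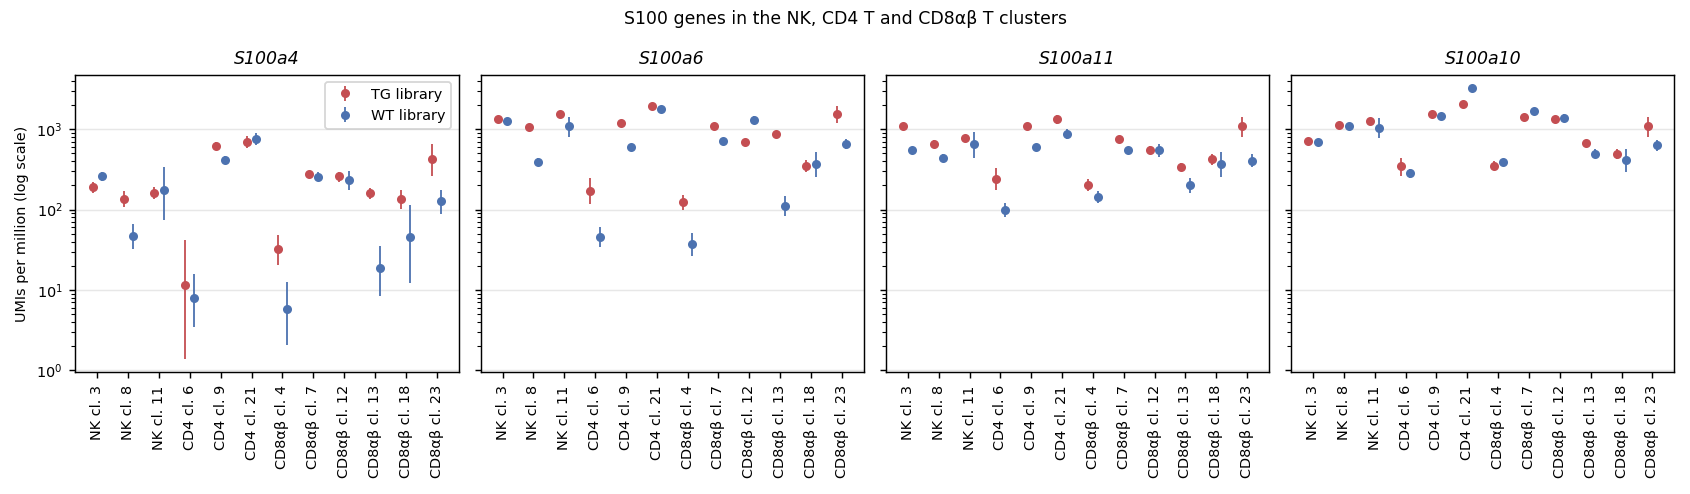
S100a4, S100a6, S100a11 and S100a10 in the clusters of NK, CD4 T and CD8αβ T cells, in UMIs per 1000000 on a log axis, with TG in red and WT in blue. Bars are 95% counting intervals of 1 library each. S100a6 is lowest in CD4 T cluster 6 (172 and 46.1) and CD8αβ T cluster 4 (123 and 37.2), and in cluster 13 it is at 871 in TG and 112 in WT.

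S100a4 was also higher in TG in cells outside the CD4 and CD8αβ classes. In NKT cells it was at 110.5 CPM in TG and 26.8 in WT (log2 2.04, interval 1.74 to 2.34), and in cluster 0, which held 403 of 446 TG and 1986 of 2232 WT NKT cells, the ratio was 2.16. In cluster 0 the NKT genes Zbtb16 (42.3 CPM in TG and 104 in WT) and Klrb1c (469 and 826) were lower in TG and the CD8 genes Cd8a (69.9 and 24.4) and Cd8b1 (29.5 and 17.5) higher, and their part was not tested. In immature B cells S100a4 was at 378 and 119 CPM (1.67, interval 1.38 to 1.97), while S100a6 there was at 2644 and 2208 (0.26) and S100a10 at 751 and 770 (-0.04). In mature B cells S100a4 was low, at 35.4 and 21.2 CPM (0.74), and in their cluster 1 alone the log2 ratio was 1.47 (interval 0.87 to 2.10). In NK cluster 8 S100a4 was at 136 and 46.9 CPM (1.54, interval 0.94 to 2.17) and S100a6 at 1060 and 387 (1.45, interval 1.25 to 1.66), and 4 of 7 members passed 2-fold, against 2.95% of genes. The haemoglobin sum in cluster 8 was 0 CPM in TG and 641 in WT, and its part was not tested. In NK cluster 3, where Cd3e was far higher in TG, S100a4 was at 189 and 258 CPM (-0.45) and S100a6 at 1328 and 1253 (0.08), and 2 of 7 passed, against 5.07% of genes. S100a11 was at 1088 and 547 in that cluster (0.99). In NK cluster 11, with 22 WT cells, S100a4 was at 161 and 173 CPM and S100a6 at 1551 and 1080. In the cells named CD8αα T, S100a4 was at 202 and 225 CPM (-0.16) and S100a6 at 1312 and 1485 (-0.18). In the cells named macrophages S100a4 was at 578 and 329 CPM (0.81), and within cluster 15 alone at 753 and 600 (0.33).

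The listed binding partners and receptors of the S100 proteins went both ways. Over the 9 types the median log2 ratio of the 10 to 13 partners with enough UMIs lay between -0.18 and 0.21, beside -0.06 to 0.07 for all genes. Higher in TG by 2-fold were Anxa2 (240 and 83.7 CPM) and Anxa1 (56.8 and 20.0 CPM), both in CD4 T cells. Embigin, Emb, which is reported to bind S100a8, was 2-fold lower in TG in 7 of the types, such as CD8αβ T cells (175 and 477 CPM), and Anxa1 was lower in the mixture named NK (54.3 and 134 CPM). The receptors Tlr4 and Ager were low everywhere, with Tlr4 highest in cluster 5 at 51.8 and 44.0 CPM and Ager there from only 9 and 8 UMIs. Among the listed neutrophil genes, 2 of 10 were 2-fold higher in TG in cluster 5 (Mmp8 and Wfdc21) and 0 lower, where 5.23% of all genes passed in either direction, with a median of 0.21 beside -0.06 for all genes. Retnlg was 2-fold higher in NKT cells and the mixture named NK and Wfdc21 in CD8αβ T cells. Retnlg, Mmp9 and Lyz2 were 2-fold lower in the cells named macrophages and Mmp9 in the mixture named NK. Cluster 15 made up 81.7% of the TG and 60.5% of the WT cells named macrophages, and the part of this difference was not tested. Of the motility and memory genes, 1 of 12 was 2-fold higher in CD4 T cells, the integrin gene Itgb1 (1147 and 509.6 CPM), a share near the 5.14% of all genes, with a median of 0.60 beside 0.07. Itga4, another integrin gene, and Vim, of intermediate filaments, were higher in NKT cells, at 317 and 99.6 CPM and 106 and 45.4 CPM. Lgals3 was higher in the mixture named NK and in the cells named CD8αα T, Crip1 in cluster 5, and Ccr2 was lower in the mixture named NK and in mature B cells. Of the naive T cell genes, 4 of 9 were 2-fold lower in TG CD4 T cells (Ccr7, Lef1, Igfbp4 and Dapl1), where 5.14% of all genes passed in either direction, with a median of -0.75. In CD8αβ T cells 2 of 9 were lower (Lef1 and Igfbp4), where 4.44% of all genes passed, with a median of -0.81. Igfbp4, Lef1 and Dapl1 were among the leading genes of CD4 T cluster 6 and CD8αβ T cluster 4. Cluster 6 held 24.4% of TG and 54.1% of WT CD4 T cells, and cluster 4 held 14.2% and 44.3% of CD8αβ T cells. The part of these shares was not tested. In the other types the 2-fold lower genes of the naive list were Lef1, Tcf7, Igfbp4 and Il7r in mature B cells, Igfbp4 and Il7r in macrophages, and Satb1 and Il7r in the mixture named NK and in the cells named CD8αα T. Cluster 17 of the mature B cells, where Cd3e was at 728 CPM in TG and 609 in WT, held 29 of 1068 TG and 155 of 1494 WT cells, and 2.25% of TG and 7.43% of WT mature B cells were called doublets. Their part in the mature B values was not tested.

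The CD44 antibody gave a readout apart from the transcripts. CD44 is a surface glycoprotein that is low on naive and high on antigen-experienced T cells. The cells of a type were ordered by it within each library and split into 3 groups of equal size (terciles). In WT CD4 T cells S100a4 was at 10.2, 153 and 532 CPM from the lowest to the highest tercile, and S100a6 at 47.8, 326 and 889. In TG CD4 T cells the same steps gave 484, 492 and 563 CPM of S100a4 and 1206, 1226 and 1013 of S100a6. The log2 ratio of the highest over the lowest tercile was thus 5.70 for S100a4 in WT (interval 4.56 to 7.15, with 6 UMIs in the lowest), and 0.22 in TG (interval -0.12 to 0.56). A split into 2 groups gave 4.37 in WT and -0.15 in TG. Thinning gave 7.27 in WT, a value that rests on at most the 6 UMIs of the lowest tercile. For S100a6 it was 4.22 in WT (interval 3.67 to 4.82) and -0.25 in TG (interval -0.48 to -0.02). The direction in TG turned with thinning (0.44), with CD44 taken as a share of the antibody UMIs (0.27) and with equal weight per cell (0.20). The WT ratio was also above 2-fold for S100a10 (2.94), S100a11 (2.64) and S100a13 (1.86), so that 5 of 7 members were at least 2-fold higher where 8.87% of 4023 genes were, and in TG 0 of 7 were where 2.19% of 2057 genes were. S100a8 and S100a9 showed 0.28 and 0.80 in WT and -0.76 and -0.47 in TG.

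The terciles of the libraries did not hold the same clusters. The lowest CD4 tercile was 98.8% cluster 6 in WT, and in TG it was 46.2% cluster 6, 33.8% cluster 21 and 20% cluster 9. The median CD44 value of that tercile was 2.31 in TG and 1.53 in WT. Within cluster 9 alone, split again by CD44, the log2 ratio of S100a4 was 1.84 in WT (194 to 697 CPM, interval 1.39 to 2.32). In TG the S100a4 ratio was -0.36 (784 to 612 CPM), with an interval of -0.76 to 0.04 that spans 0. That of S100a6 was 1.33 in WT (interval 0.98 to 1.70) and -0.33 in TG (interval -0.63 to -0.04). In CD8αβ T cells the WT ratios were 3.93 for S100a4 (13.2 to 201 CPM), 3.29 for S100a6, 1.75 for S100a10, 1.58 for S100a11 and 1.18 for S100a13, and 5 of 7 members were at least 2-fold higher where 12% of 5610 genes were. In TG CD8αβ T cells they were 0.91 for S100a4 (149 to 280 CPM), 0.73 for S100a6, -0.08 for S100a10, 0.34 for S100a11 and -0.41 for S100a13, and 0 of 7 passed where 1.25% of 7253 genes did. Ranked among all genes, S100a4 and S100a6 were at percentiles 98.3 and 96.5 in TG and 98.7 and 98.1 in WT. S100a11, S100a10 and S100a13 were at 82.8, 32.6 and 8.22 in TG and 94.4, 95.2 and 90.7 in WT. The lowest CD8αβ tercile was 93.0% cluster 4 in WT and 46.8% cluster 12 in TG. Whether the antibody behaved alike in both libraries was not tested.

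**Figure D5:**
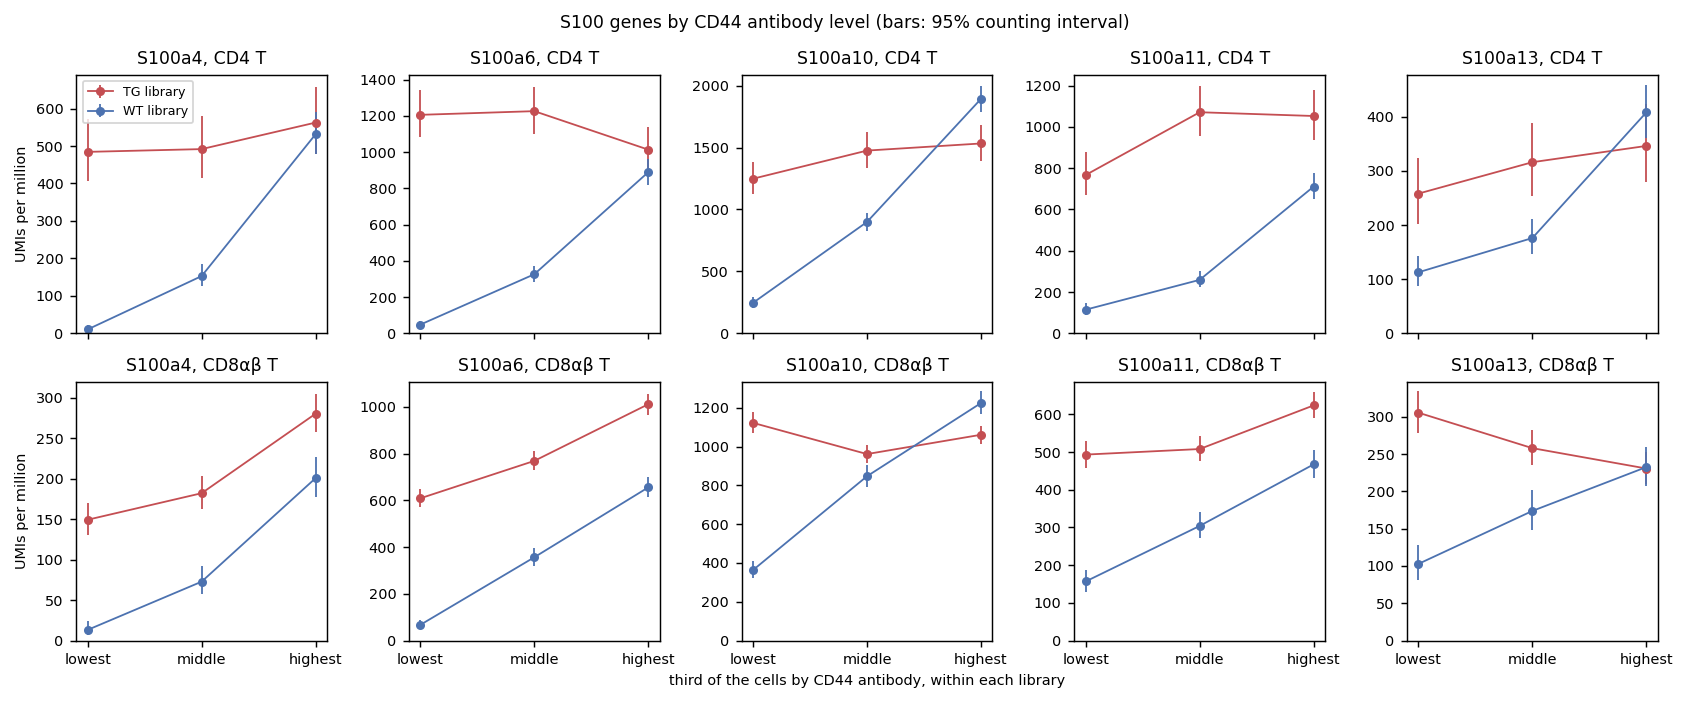
Levels of 5 S100 genes in UMIs per 1000000 (y axis) in the lowest, middle and highest tercile of CD4 T cells (top) and CD8αβ T cells (bottom) by CD44 antibody value (x axis), with TG in red and WT in blue and 95% counting intervals as bars. S100a4 in WT CD4 T cells goes from 10.2 to 532, and in TG it is at 484 in the lowest and 563 in the highest tercile.

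The members fell into groups by their profile over 21 summed profiles of cell type and library with at least 50 cells each, compared as log2(CPM + 10). The correlations are descriptions over profiles that share libraries and clusters. Among these profiles S100a8 was at 62117 CPM in TG neutrophils, at 21386 in TG and 10788 in WT cluster 5, and at most 175 elsewhere. Correlations with S100a8 and S100a9 therefore mostly set these few profiles against the rest. They do not show how the genes vary between the cells of a type. S100a8 and S100a9 had r = 0.998 with each other and were nearest to Mmp8 (0.986 and 0.983) and Retnlg (0.981 and 0.982) among 3733 genes. S100a11 followed them at 0.90 for each, and S100a6 was nearest to Anxa2 (0.82), S100a11 (0.79) and Sec14l1 (0.77). S100a11 itself was nearest to Sec14l1 (0.94), Fosl2 (0.93) and Pkm (0.92). S100a10 was opposed to the pair, at -0.76 with S100a8 and -0.77 with S100a9, and nearest to Anxa6 (0.95), Itgb7 (0.92) and Madd (0.91). S100a4 was nearest to Crip1 (0.83), Capn2 (0.81) and Plec (0.80), and S100a13 to Spn (0.94), Ndufa1 (0.88) and Ppp1ca (0.88). Known partners did not always share a profile. S100a10 had r = -0.28 with Anxa2 and 0.80 with Ahnak, S100a11 had 0.86 with Anxa1, S100a6 had -0.50 with Cacybp, and S100a4 had 0.04 with the myosin gene Myh9.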

How the data were processed

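Liver immune cells of 2 capture libraries (BD Rhapsody, transcripts and 49 antibodies) were analysed. The authors aligned reads to mm10 with STAR in the vendor pipeline and deposited UMI counts per cell, joined data in Seurat and gave each cell a genotype, a type name and a cluster. The filter on cells is not given in the sources used here. In the deposited filtered counts, genes seen in under 10 cells of 1 genotype are listed at 0 there. Antibody levels are natural log values as deposited, log(1 + count / geometric mean over the antibodies), and the mitochondrial share is a percent given by the authors. Member counts were equal in library and filtered tables for all named cells.

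Counts were summed per library and cell type or cluster, and levels have exact Poisson intervals as CPM, shares with Clopper-Pearson intervals and ratios with exact conditional binomial intervals. Ratios were called at 2-fold where each library had at least 50 cells and both profiles together at least 50 UMIs. Ratios of neutrophils (17 WT cells) and CD4 T cluster 21 (48 TG cells) are values that entered no count. Cells thinned to 1000 UMIs, TMM factors, other totals, equal weight per cell and no minimum count were alternatives. Doublets called by Scrublet (39 in TG, 241 in WT) were kept and left out in an alternative. The genes named are the members, the other S100 genes, lists of partners and receptors, neutrophil, motility and memory, and naive T cell genes, cell type markers, and for each member the 3 genes most like it. Members and lists were chosen with earlier results of these data known. The 5379 and 16829 cells without a genotype name entered no comparison of genotypes, and only their summed levels per library are given. The ratio calculation was tested on simulated data. Positions are from GENCODE (GRCm38) and promoter windows from RefSeq, which matched 6 of 7 members. Python 3.11.15, numpy 2.4.6, scipy 1.17.1, pandas 2.3.3, scanpy 1.11.5 and edgeR 4.0.16 were used.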

Additional observations from a re-analysis of the deposited data

Results flagged for a closer look

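Signal of S100 genes was also found outside the cells and genes compared above. In the cells without a genotype name of the library that held the TG cells, S100a8 was at 1215 CPM, S100a9 at 1563, S100a6 at 844, S100a11 at 817, S100a10 at 650.3, S100a4 at 212 and S100a13 at 156. In such cells of the library that held the WT cells, S100a8 was at 2238 CPM, S100a9 at 3262, S100a6 at 954, S100a10 at 768, S100a11 at 691, S100a13 at 208 and S100a4 at 191. A few S100 genes that the filtered table does not hold had UMIs over all cells of the library files. In the library of the TG cells these were S100a2 with 14 UMIs, S100a5 with 8, S100a14 with 6, S100a7a with 5, and S100a16 and S100z with 1 each, and in the library of the WT cells S100a2 with 41, S100a14 with 22, S100a5 with 16, S100a7a with 16 and S100z with 6.

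The direction of TG over WT differed between cell types for 2 members, with counting intervals on either side of 0. S100a6 had a log2 ratio of 1.39 in CD4 T cells and -0.18 in the cells named CD8αα T, and S100a10 had 0.44 in CD4 T cells and -0.26 in mature B cells. With the clusters of each type weighted equally both S100a10 ratios changed sign, to -0.34 in CD4 T cells and 0.35 in mature B cells. The CD4 T ratio of S100a6 was then 0.45. These differences between types were not tested, since each rests on 1 library per genotype.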

How the results depend on the processing

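The count of 18 pairs past 2-fold lay between 17 and 19 under the alternatives chosen at the start and was 17 with clusters weighted equally, 18 without the cells named monocytes and macrophages and 5 without S100a8 and S100a9, 3 choices made after seeing the data. S100a4 in CD4 T cells fell below 2-fold in 4 of the former alternatives and S100a9 in mature B cells in 3. S100a8 in NKT cells fell to 0.74 at the lowest. Other pairs rose past 2-fold under some of them, so the set of pairs changed more than its count. These included S100a4 in CD8αβ T cells (1.42 at the highest) and mature B cells (1.16), S100a6 in CD8αβ T cells (1.12) and S100a8 in cluster 5 (1.07). With clusters weighted equally S100a4, S100a6 and S100a11 in CD4 T cells all fell below. S100a4 in mature B cells (1.16) and S100a11 in NKT cells (1.25) then rose past 2-fold. Among the pairs that changed sign under this weighting were S100a10 and S100a13 in mature B cells (0.35 and 0.34). Over the former alternatives 4 of 62 pairs changed sign, all of them under 2-fold. In neutrophils TMM factors moved the log2 ratio of S100a8 to 0.94 and of S100a9 to 0.44, a shift of all genes there by 0.36, thinning moved them to 0.43 and 0.0017, and equal weight per cell to 0.49 and 0.010. The share of S100a8 and S100a9 in neutrophils was 13.5% in TG and 11.3% in WT without ribosomal protein and mitochondrial genes, 13.1% and 11.5% after thinning, and in WT 11.2% with equal weight per cell and 10.8% without doublets. For CD44 in CD4 T cells, splitting into 2 groups gave S100a4 -0.15 in TG and 4.37 in WT and S100a6 3.38 in WT. Thinning gave S100a4 7.27 in WT, from at most 6 UMIs in the lowest tercile, and S100a6 0.44 in TG. S100a6 in TG was 0.27 by CD44 share and 0.20 with equal weight. Within cluster 9, chosen after seeing the data, S100a4 was -0.36 in TG (interval -0.76 to 0.04) and 1.84 in WT and S100a6 was 1.33 in WT. The cause of these moves was not tested. The Ly6G set gave no value, since 0 WT neutrophils passed. Leaving out a replicate was not possible with 1 library per genotype. No paired analysis was possible because each genotype has 1 library and the result comes from no test. The 17 WT neutrophils and few UMIs of S100a4 in myeloid cells limit those values, and TMM moved CD4 T cells by -0.12 and macrophages by -0.10.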
